A study of Mus musculus with 60 samples.

Results

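The 40 genes described here code for the BMP and TGF-beta signalling pathway. They were taken by symbol from the 24378 features of the deposited table, in which all 40 were found, and fall into 12 ligands, 6 secreted antagonists and modulators, 10 receptors, 8 Smads and the 4 Id genes. The samples were dissected brain tissue of TH-GFP mouse embryos, which carry green fluorescent protein under the tyrosine hydroxylase promoter so that dopaminergic tissue can be seen during dissection; every group carries this transgene. The study took the ventral midbrain (the domains called M3 to M7 of floor and basal plate), dorsal midbrain, alar plate, ventral forebrain and ventral hindbrain on 4 embryonic days from E11.5 to E14.5, 1 day apart, with 3 libraries in each of the 20 groups and 60 in all. The labels name no treatment and no mutant group, so each region is compared with the other regions. Whether the 3 libraries of a group are from different embryos or litters is not in the labels, and p-values measure the spread between these samples, which may be technical.

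BMP and TGF-beta ligands are secreted dimers that bring together type I and type II receptor kinases on the receiving cell. BMP receptors mainly phosphorylate Smad1, Smad5 and Smad9, while TGF-beta and activin receptors mainly phosphorylate Smad2 and Smad3; each pairs with Smad4 in the nucleus, Smad6 and Smad7 inhibit the pathway, and the Id genes are classical BMP targets. In the developing neural tube BMPs are best known from the dorsal roof plate, and TGF-beta ligands are known for their action on midbrain dopaminergic neurons.

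Promoter sequence is shown for Tgfb2 and Grem1, a ligand and an antagonist called higher together in the ventral midbrain at E14.5, for Id2, an Id gene called in both midbrain regions, and for Id4, an Id gene that was not called, chosen for contrast after its values were seen. Windows of 250 bases before the RefSeq start (GRCm38.p6) were matched for 30 of the 40 genes and searched on both strands. The motifs were GGCGCC, a GC-rich element bound by BMP Smads, GTCTAG, a Smad binding element, and the E-boxes CAGCTG and CACGTG. Of these, CAGCTG is the kind of site bound by the factors that Id proteins inhibit. Letters that match are in capitals. The stretches are Tgfb2 at chr1:186705990-186706239 (minus strand), Grem1 at chr2:113758649-113758898 (minus), Id2 at chr12:25096254-25096342 (minus) and Id4 at chr13:48260866-48261115 (plus). For Id2 only the 89 bases outside annotated exons of the gene are shown. They lie inside the GENCODE span of Id2 (chr12:25093799-25097140). They precede the RefSeq start used here, but not the start of the GENCODE gene.
Tgfb2: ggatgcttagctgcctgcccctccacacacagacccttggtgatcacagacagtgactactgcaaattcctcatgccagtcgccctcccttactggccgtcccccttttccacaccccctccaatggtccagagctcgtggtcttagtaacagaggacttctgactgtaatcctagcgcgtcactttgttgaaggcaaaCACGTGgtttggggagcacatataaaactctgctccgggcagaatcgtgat
Grem1: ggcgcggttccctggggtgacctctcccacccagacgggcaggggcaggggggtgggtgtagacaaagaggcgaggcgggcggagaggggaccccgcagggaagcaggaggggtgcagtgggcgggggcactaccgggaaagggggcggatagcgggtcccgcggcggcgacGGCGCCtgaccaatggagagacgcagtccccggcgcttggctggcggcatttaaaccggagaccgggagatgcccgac
Id2: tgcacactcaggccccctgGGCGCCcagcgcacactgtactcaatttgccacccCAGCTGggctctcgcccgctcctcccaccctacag
Id4: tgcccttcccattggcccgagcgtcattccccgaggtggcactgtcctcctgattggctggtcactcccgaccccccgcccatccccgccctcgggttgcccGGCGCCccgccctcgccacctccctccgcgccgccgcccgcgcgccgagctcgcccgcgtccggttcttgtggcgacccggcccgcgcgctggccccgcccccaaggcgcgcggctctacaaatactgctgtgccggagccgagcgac
Tgfb2 holds CACGTG 51 bases before its start, and exons of Tgfb2 share bases with an exon of Gm29491 on the other strand. Grem1 and Id4 hold GGCGCC at 78 and 148 bases, and Id2 holds GGCGCC at 231 and CAGCTG at 196, counted from the RefSeq start. Of 32851 mouse promoter windows of the same length, 9.59% hold GGCGCC, 7.11% GTCTAG, 13.0% CAGCTG and 6.02% CACGTG; among the 30 matched windows the numbers were 8, 1, 2 and 4. These are letter matches only.

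Values are RPKM, read numbers scaled for transcript length and library size, and a level is compared between genes only on this scale. Library depth, in M reads, was lowest at E14.5 (0.979 to 6.13), followed by E11.5 with 1.58 to 6.43, and was 8.67 to 13.1 for the E12.5 libraries and 4.97 to 23.6 for those of E13.5. By Pearson correlation of log2(RPKM + 1) over all features, 8 of 15 libraries at E11.5 (all 3 of ventral forebrain and of alar plate, ventral hindbrain replicate 2 and ventral midbrain replicate 4) and all 3 alar plate libraries at E12.5 matched another region better than their own group, and 0 did so later. Th, which marks dopaminergic neurons, was 71.6 to 85.0 RPKM in the ventral midbrain at E12.5 against at most 6.67 in the other regions. In the libraries labelled ventral forebrain, Nkx2-1 was 0.0357, 0.561 and 13.9 RPKM at E12.5, and Foxa2 was 0.143 in replicate 1 of that group against 16.9 and 21.5 in the others. Hoxa2 was 0.105 RPKM in ventral hindbrain E12.5 replicate 1 against 11.0 and 6.43 in the others. In bulk tissue, fewer cells of a type and less RNA per cell cannot be told apart.

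Each region was tested against the other 4, taken as their mean, over the 30 libraries of E12.5 and E13.5; sample descriptions open with a prefix that is the same for all libraries of E12.5 and for all of E13.5, and that is taken here as a batch, although the labels do not say what it stands for. limma on log2(RPKM + 1) was used, which understates changes of low genes. Calls required an adjusted p (Benjamini-Hochberg, all genes) below 0.05 and a log2 change of at least 1 in size. The 5 comparisons share libraries. Of the 40 genes 37 were tested; Bmp2, Inhba and Smad9 never reached a group mean of 1 RPKM, with highest group means of 0.708, 0.392 and 0.766.

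In the ventral midbrain 4 of 37 genes were called higher (Tgfb2, Fstl1, Id3 and Bmp6), where 2.27% of all 13994 genes tested were, and 1 was called lower (Id2), where 0.572% were. The dorsal midbrain had Id2 and Smad3 called higher, against 3.1% of all genes, and Tgfb2 lower, against 3.15%. In the ventral hindbrain Tgfb2 was called higher, against 1.72%, and Bmp7 lower, against 1.06%. In the alar plate limma called 0 members, where 0.493% of all genes were called higher and 0.579% lower; 17 members were below 0.05 before adjustment, and the voom fit of recovered reads called 3. In the ventral forebrain limma also called 0, where 0.407% of all genes were higher and 0.543% lower. Before adjustment 18 members were below 0.05, and voom called 1. Here and below, no share of all genes is given for counts before adjustment or by voom. Such counts therefore have nothing to be compared with and are no result about the members.

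In mm10 coordinates (GENCODE vM21) the genes called in any comparison are Tgfb2 at chr1:186622792-186705989, Bmp6 at chr13:38345107-38500302, Bmp7 at chr2:172868012-172940321, Fstl1 at chr16:37776873-37836514, Grem1 at chr2:113746164-113758646, Fst at chr13:114452290-114458951, Bmpr1b at chr3:141837136-142169425, Smad3 at chr9:63646767-63757994, Id1 at chr2:152736251-152737410, Id2 at chr12:25093799-25097140 and Id3 at chr4:136143497-136145755.

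**Figure D1:**
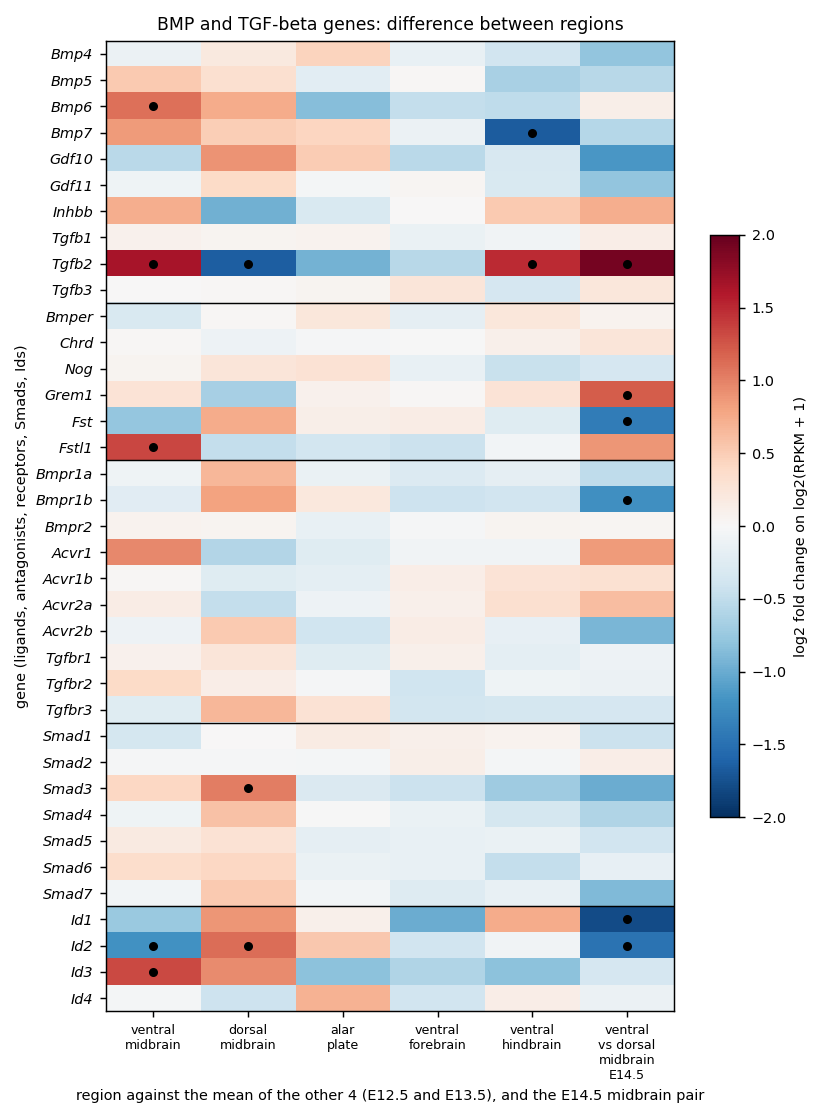
Log2 change (color) of the 37 tested genes in the 5 region comparisons at E12.5 and E13.5 and in ventral against dorsal midbrain at E14.5, with genes in rows by role and black dots on called genes. Tgfb2 carries 4 of the 16 dots, in both directions, and the alar plate and ventral forebrain columns carry none.

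Most ligands were low. Gdf11, a relative of myostatin that limits neuron production in several tissues, had the highest level of the 12 ligands in all 20 groups, with group means of 7.66 to 19.4 RPKM, and Bmp7 followed a different pattern at 1.18 to 15.3. Bmp4, the roof plate BMP, reached a group mean of 1 RPKM in 5 groups and Bmp5 in 10.

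Tgfb2 separated ventral midbrain and ventral hindbrain from the other regions. In the ventral midbrain it was 9.49, 8.69 and 9.20 RPKM at E12.5 and 6.38, 8.24 and 9.22 at E13.5. Ventral hindbrain libraries held 10.6, 7.40 and 6.88 RPKM and then 6.55, 9.10 and 6.55. In the dorsal midbrain the values were 0.335, 0.546 and 0.784, then 0.643, 0.475 and 0.401. All 12 libraries of the first 2 regions lay above all those of the alar plate (0.451 to 2.13) and the ventral forebrain (0.901 to 3.35). The log2 change was 1.65 ± 0.12 (SE; adjusted p = 2.8e-10) in the ventral midbrain, 1.5 ± 0.12 (3.1e-09) in the ventral hindbrain and -1.65 ± 0.12 (4.8e-10) in the dorsal midbrain; the alar plate, at -0.94 ± 0.12, was under the limit of change. At E11.5 no such separation was present, with 1.72, 0.953 and 2.80 RPKM in the ventral midbrain and 1.19, 3.87 and 2.96 in the dorsal midbrain. Tgfb2 shares exon bases with Gm29491 on the other strand; whether counting used strand is not given in the sources used here.

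Inhbb, which codes for the activin B subunit, was also high in ventral midbrain and ventral hindbrain and low in the dorsal midbrain, at lower levels. Ventral midbrain libraries held 1.96, 2.61 and 2.29 RPKM at E12.5 and 3.05, 2.69 and 2.7 at E13.5, and ventral hindbrain libraries 1.86 to 2.56 over both stages. Dorsal midbrain libraries were the low ones, at 0.247 to 0.566, while the ventral forebrain reached 2.21 at E12.5 and overlapped the high regions. Its log2 changes were 0.73 ± 0.09 in the ventral midbrain, 0.53 ± 0.09 in the ventral hindbrain and -0.96 ± 0.09 in the dorsal midbrain (adjusted p = 1.6e-06, 0.00015 and 1.9e-08), all under the limit of 1. With a pseudocount of 0.1 the change passed the limit in the ventral midbrain (1.24) and dorsal midbrain (-1.86). With voom it passed in the ventral midbrain (1.35), dorsal midbrain (-2.17) and ventral hindbrain (1.07).

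Bmp7 was low in the ventral hindbrain. It was 1.07, 1.60 and 0.872 RPKM there at E12.5 and 1.58, 0.836 and 1.54 at E13.5, below every library of the other 4 regions at each stage, whose lowest value was 2.74. The log2 change was -1.66 ± 0.17 (adjusted p = 1.4e-07). The ventral midbrain held 9.67, 7.54 and 7.54 RPKM at E12.5, a log2 change over both stages of 0.86 ± 0.17. At E13.5 replicate 4 of that group stood out with 12.7 RPKM against 5.35 and 6.81.

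Bmp6 was high in both midbrain regions. Ventral midbrain libraries held 4.13, 3.75 and 4.04 RPKM at E12.5 and 7.93, 2.77 and 3.04 at E13.5, and dorsal midbrain libraries 3.51, 2.74 and 4.85, then 2.47, 3.48 and 2.37. The other 3 regions ranged from 0.1 to 2.10. The ventral midbrain change was 1.10 ± 0.16 (adjusted p = 1.4e-05) and the dorsal one 0.74 ± 0.16 (0.00041). Replicate 4 of ventral midbrain E13.5 is the high library again; without it the change was 0.90, still at adjusted p = 9.1e-05 but under the limit, so the call rests on that library. Bmp6 shares exon bases with Txndc5 on the other strand.

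**Figure D2:**
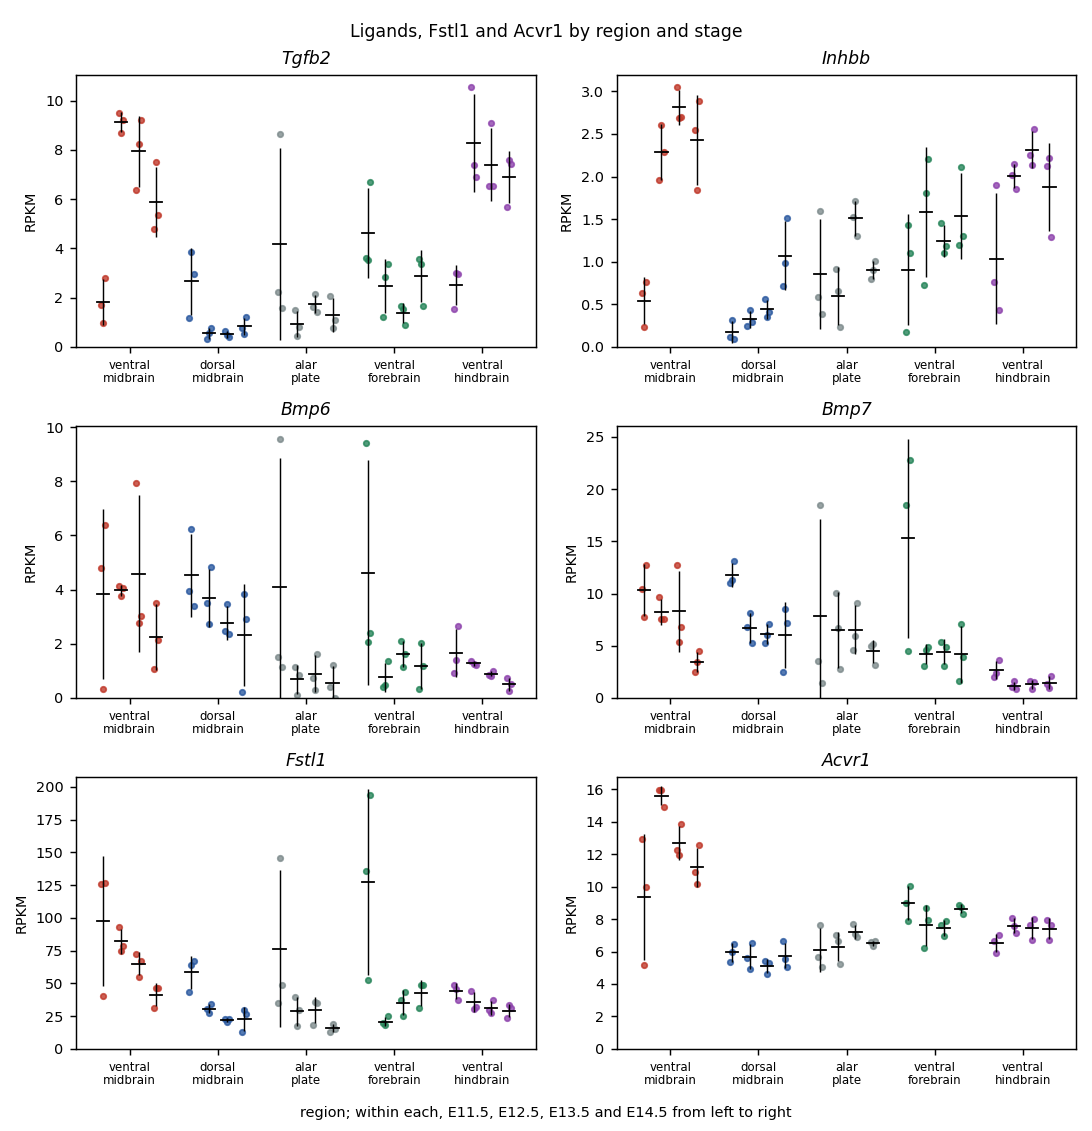
RPKM of Tgfb2, Inhbb, Bmp6, Bmp7, Fstl1 and Acvr1 in each of the 60 libraries (points), by region and, within it, by stage; horizontal lines are group means and vertical lines SD (n = 3). From E12.5 on, Tgfb2 is high in ventral midbrain and ventral hindbrain, Acvr1 in ventral midbrain, and Bmp7 is lowest in ventral hindbrain.

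The remaining ligands were not called in any region by limma on log2(RPKM + 1). Tgfb1 had log2 changes between -0.14 and 0.08 in the 5 comparisons and Tgfb3 between -0.34 and 0.24. Gdf10 was 0.89 ± 0.15 higher in the dorsal midbrain (adjusted p = 1.8e-05), where the libraries held 0.895 to 2.18 RPKM, and 0.0442 to 0.539 in the ventral midbrain. Gdf11 was 0.39 ± 0.11 higher in the dorsal midbrain (0.0037). Bmp5 had a change of -0.64 ± 0.16 in the ventral hindbrain (0.0031). With a pseudocount of 0.1 and with voom Gdf10 passed the limit in the dorsal midbrain (2.15 and 2.67). In the ventral hindbrain these settings called Bmp5 (-1.48 and -1.66) and Bmp4 (-1.27 and -1.84). Each setting also called some of these ligands in other regions.

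Markers of mesenchyme, the connective tissue around the brain, varied between libraries. The summed RPKM of 10 mesenchymal markers, which include Col1a1, Col3a1, Lum, Dcn and Foxc1, was 353 in ventral midbrain E13.5 replicate 4 against 8.15 and 8.73 in the other 2. It was 68.9 to 132 in the dorsal midbrain at E12.5 and E13.5, at most 12.8 in all 12 ventral hindbrain libraries and 7.19 to 8.61 in the ventral midbrain at E12.5. At E11.5 it reached 1328 in ventral forebrain replicate 6, with Tgfbr2 at 18.9 RPKM, and 613 in alar plate replicate 4, with Bmp4 at 21.5. That alar plate library also had a summed roof plate and choroid plexus marker level of 423 RPKM against 3.75 and 20.5 in the others of its group, and neuronal markers at 322 against 1699 and 1580. Within the 20 groups, Bmp7 was highest in the library with the most mesenchymal marker RPKM in 15, Tgfbr2 and Tgfbr3 in 13, Fstl1, Id1, Bmpr1a and Smad6 in 11 and Tgfb2 in 7. The median was 8 over the 37 tested members and 7 over 14692 genes, with 90th percentiles of 11 and 10. The ventral midbrain at E12.5 and the ventral hindbrain had like marker sums, and Bmp7 was 7.54 to 9.67 RPKM in the first and 0.872 to 1.60 in the second at that stage. The part of this tissue in the results was not tested.

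**Figure D3:**
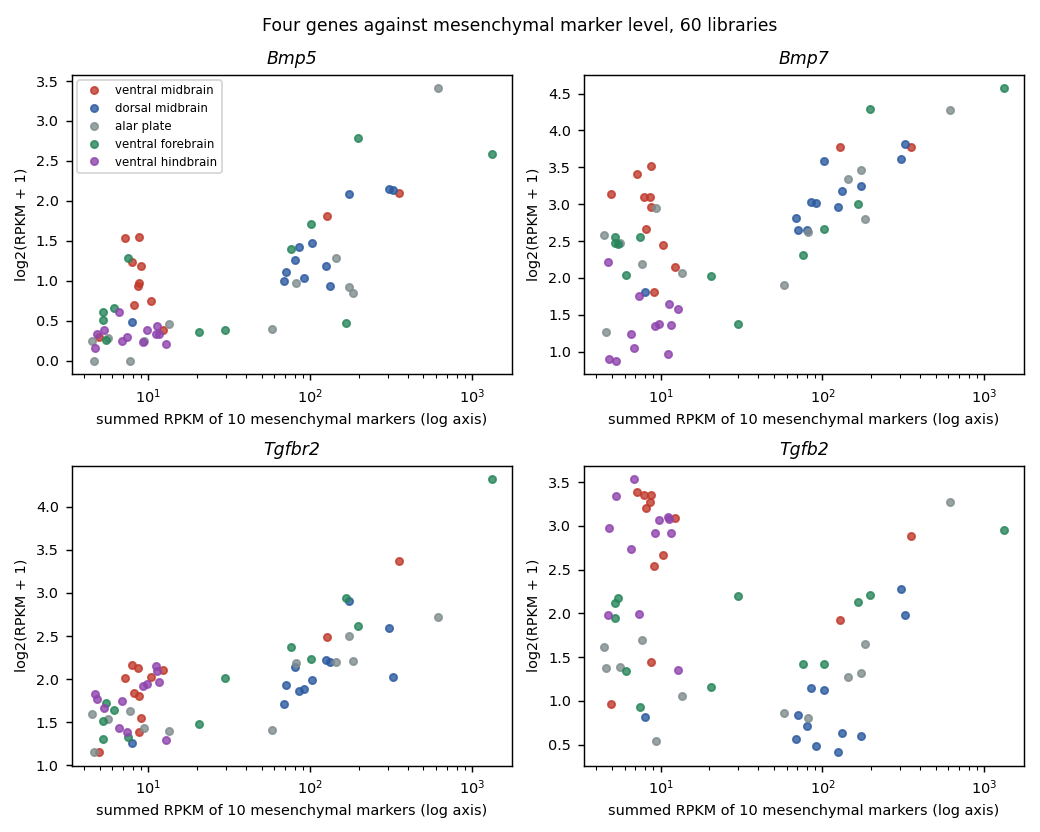
Log2(RPKM + 1) of Bmp5, Bmp7, Tgfbr2 and Tgfb2 against the summed RPKM of 10 mesenchymal markers (log axis) in the 60 libraries, colored by region. The libraries with the highest marker sums, 613 and 1328, are among the highest for Bmp5, Bmp7 and Tgfbr2, while the ventral midbrain and ventral hindbrain libraries with high Tgfb2 have marker sums of at most 12.8, except 1 at 353.

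Among the secreted antagonists and modulators Fstl1, a follistatin-like glycoprotein that binds BMPs, was the highest of 6 in all 20 groups. Ventral midbrain libraries held 92.9, 74.7 and 78.7 RPKM at E12.5 and 72.7, 55.3 and 67.3 at E13.5. The other 4 regions ranged from 17.2 to 44.3, so the groups did not overlap at either stage. Its log2 change was 1.33 ± 0.14 (adjusted p = 9.1e-08). At E11.5 2 of 3 ventral midbrain libraries held 126 RPKM, and the ventral forebrain libraries held 136, 52.4 and 194.

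None of the other 5 was called in a region comparison. Chordin (Chrd) had log2 changes between -0.10 and 0.11. Noggin (Nog) was 1.89 to 3.24 RPKM in the ventral hindbrain at E12.5 and E13.5, a change of -0.44 ± 0.09 (adjusted p = 0.00044), and 2.67 to 3.94 in the ventral midbrain. Gremlin (Grem1) was low in the dorsal midbrain, at 0.103 to 0.518 RPKM with a change of -0.66 ± 0.12 (5.1e-05). Follistatin (Fst), which traps activins, was 1.61 to 2.75 RPKM in the ventral midbrain and 2.88 to 8.44 in the dorsal midbrain, with changes of -0.77 ± 0.20 and 0.74 ± 0.20 (0.0042 and 0.0022). Bmper, which binds BMPs outside the cell, passed in none of the 5 region comparisons; at E14.5 it was 6.78, 6.28 and 3.87 RPKM in the ventral forebrain, above all libraries of the other regions (at most 2.36).

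The 10 receptor genes had group sums of 145 to 224 RPKM, and single genes varied more, with a ratio of highest to lowest group mean of 17.9 for Bmpr1b, 10.6 for Tgfbr3 and 3.05 for Acvr1. Tgfbr1, the type I receptor for TGF-beta, was the highest in 18 of 20 groups (group means 30.8 to 85.2), and the activin receptor Acvr1b in the other 2. No receptor was called in the 5 region comparisons. The nearest was Acvr1, the type I receptor also called Alk2. It was 15.9, 16.0 and 14.9 RPKM in the ventral midbrain at E12.5, 12.2, 12 and 13.9 at E13.5 and at least 10.2 in all 3 libraries of E14.5, above every library of the other regions at each of these stages; the highest of those was 8.85. The log2 change was 0.96 ± 0.06 (adjusted p = 1.7e-11), and it was 1.05 with a pseudocount of 0.1 and 1.07 with voom, both past the limit. The dorsal midbrain was the lowest, at 4.62 to 6.5 RPKM over E12.5 and E13.5 (-0.59 ± 0.06, 4.6e-08).

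The BMP type I receptors Bmpr1a and Bmpr1b had their highest group means in the dorsal midbrain from E12.5 to E14.5; at E11.5 Bmpr1b was higher in the alar plate (6.64 RPKM) and ventral hindbrain (4.95) than in the dorsal midbrain (3.07). Bmpr1a was 24.0, 21.5 and 16.4 RPKM in the dorsal midbrain at E12.5 and 18.6, 20.1 and 17.4 at E13.5, above every other region's libraries, with a change of 0.67 ± 0.08 (adjusted p = 1.9e-07). Bmpr1b was 1.12 to 2.54 there and 0.563 to 0.746 in the ventral midbrain, with a dorsal midbrain change of 0.80 ± 0.11 (1.4e-06). Acvr2a, an activin type II receptor, was lower in the dorsal midbrain (-0.48 ± 0.09, 0.00011) and Acvr2b was higher (0.53 ± 0.17, 0.0098). The BMP type II receptor Bmpr2 was even, with changes of -0.15 to 0.06. Tgfbr3, the co-receptor betaglycan, was 0.67 ± 0.15 higher in the dorsal midbrain (0.00069).

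Of the Smads, Smad4 had the highest level in 19 of 20 groups and Smad1 in the other. Smad3 was 21.1, 20.2 and 12.9 RPKM in the dorsal midbrain at E12.5 and 15.4, 19.2 and 16.3 at E13.5, against 4.69 to 15.5 in the other regions, so the low dorsal library overlapped the ventral midbrain at E12.5. The change was 1.02 ± 0.12 (adjusted p = 2.5e-07). This call sits at the limit: it was between 0.959 and 0.999 without any 1 of 5 libraries (dorsal midbrain E12.5 replicate 1 or 2, dorsal midbrain E13.5 replicate 5, ventral forebrain E12.5 replicate 2 or alar plate E13.5 replicate 4) and to 0.97 with median-of-ratios scaling. Smad4 was also higher in the dorsal midbrain (0.58 ± 0.06, 2.1e-08), with 37.2 to 46.4 RPKM against 21.7 to 34.3 elsewhere, and the inhibitory Smad7 too (0.52 ± 0.06, 3.2e-07). Smad2 was even, with changes of -0.04 to 0.11. Smad1 was lower in the ventral midbrain (-0.35 ± 0.05, 6e-06).

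The Id genes differed by region in different ways. Id2 was low in the ventral midbrain, at 12.9, 11.3 and 9.44 RPKM at E12.5 and 12.6, 13.0 and 11.3 at E13.5. Dorsal midbrain libraries held 47.6, 42.9 and 48.5, then 39.9, 49.6 and 42.9. The changes were -1.20 ± 0.10 (adjusted p = 3.5e-09) and 1.12 ± 0.10 (1.2e-08). At E12.5 the ventral hindbrain (10.9, 18.6 and 13.2) overlapped the ventral midbrain through replicate 1 alone, and at E13.5 it did not overlap (43.1, 27.3 and 44.0). In that replicate 1 ventral hindbrain markers summed to 1.14 RPKM (30.6 and 17.7 in the others of its group). Ventral midbrain markers summed to 52.5 (16.8 and 13.3). Their part in the Id2 value was not tested.

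Id3 was high in both midbrain regions. It was 123, 96.2 and 92.1 RPKM in the ventral midbrain at E12.5 and 78.3, 70.3 and 85.2 at E13.5, with a change of 1.32 ± 0.17 (adjusted p = 2.7e-06). The dorsal midbrain was high as well, with 74.6, 80.5 and 56.4, then 62.2, 90.4 and 76.7 (0.94 ± 0.17, 6.3e-05). Other libraries ranged from 18.0 to 36.4 with 1 exception, alar plate E12.5 replicate 3, at 77.5. In that library the roof plate and choroid plexus markers summed to 132 RPKM (3.84 and 2.20 in the others of its group) and the ventral hindbrain markers to 77.2 (0.155 and 0); their part in the Id3 value was not tested. Without that library the dorsal midbrain change was 1.02 and the alar plate change -1.13, and both passed the limit.

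Id1 was low in the ventral midbrain (6.70 to 9.92 RPKM at E12.5 and E13.5) and ventral forebrain (4.91 to 9.74) and higher in the dorsal midbrain (12.9 to 27.3) and ventral hindbrain (13.6 to 31.9). Its changes of -0.74, -0.99, 0.88 and 0.74, each ± 0.16, all had an adjusted p of 0.0014 or lower and all stayed under the limit. The ventral forebrain change passed it without any 1 of 10 libraries, and the dorsal midbrain change reached 1.03 without dorsal midbrain E12.5 replicate 3, which at 12.9 RPKM was the low one of its group. In that library dorsal midbrain markers summed to 53.5 RPKM (95.2 and 98.3 in the others of its group). Ventral hindbrain markers summed to 14.9 (0.0807 and 0.115) and ventral forebrain markers to 5.72 (0 and 0.107). Their part in the Id1 value was not tested. Id4 was high in the alar plate, at 110 to 157 RPKM over both stages (0.70 ± 0.13, 0.00083), with overlap from 1 ventral forebrain library at 152 and from ventral hindbrain libraries, and was the highest Id gene in 13 of 20 groups. At E14.5 the alar plate held 158, 216 and 194 RPKM, above all other libraries of that stage (at most 150).

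**Figure D4:**
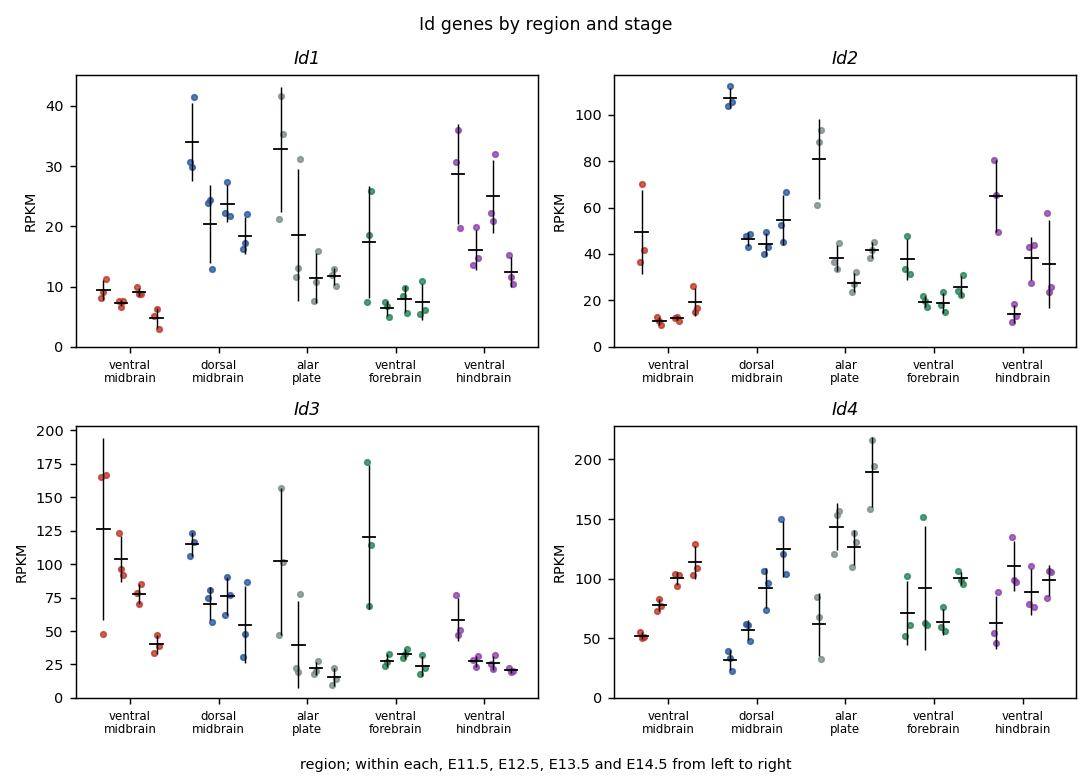
RPKM of the 4 Id genes in each of the 60 libraries (points), by region and, within it, by stage; horizontal lines are group means and vertical lines SD (n = 3). Id2 is low and Id3 high in the ventral midbrain at E12.5 and E13.5, and all 4 genes have their own order of regions.

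Groups that lay wholly above or below every library of the other 4 regions were counted stage by stage, among all tested genes as well. At E12.5 the ventral midbrain was above for Fstl1, Acvr1 and Id3 and below for Smad1 (7.8% of all genes separated it). The dorsal midbrain was above for Bmpr1a, Smad4 and Smad7 (8.07%) and the ventral hindbrain below for Nog, Tgfb3 and Bmp7 (3.98%). The alar plate (1.07%) and ventral forebrain (1.72%) separated for 0 of the 36 members that reached a group mean of 1 RPKM at that stage. At E13.5 the ventral midbrain was above for Inhbb, Fstl1 and Acvr1 and below for Id2 (4.39%). The dorsal midbrain then separated for 12 genes, 8 above (Gdf11, Smad5, Fst, Gdf10, Bmpr1a, Smad4, Smad7 and Smad3) and 4 below (Inhbb, Tgfb2, Acvr1 and Grem1), and for 33.6% of all genes. The ventral hindbrain was below for Smad4, Bmp7 and Smad6 (6.12%), and the alar plate (1.05%) and ventral forebrain (2.67%) separated for 0. At E14.5 the ventral midbrain was above for Acvr1 and below for Acvr2b (4.21%), and the dorsal midbrain above for Bmpr1a, Smad4, Id1 and Bmpr1b and below for Acvr2a (12.9%). The alar plate was above for Id4 (1.39%), the ventral forebrain above for Bmper (3.59%) and the ventral hindbrain below for Nog (1.78%). Both midbrain regions have 1 batch prefix at E14.5 and the other 3 regions another, and the separations at this stage cross that split. At E11.5 the dorsal midbrain was above for Id2, at 104, 112 and 105 RPKM against at most 93.5 (4.46%); the 3 dorsal midbrain libraries of that stage have another batch prefix than all the others, so region and batch cannot be told apart. The ventral midbrain (0.92%), alar plate (0.312%), ventral forebrain (0.275%) and ventral hindbrain (0.333%) separated for 0.

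Without the limit of change, at an adjusted p below 0.05 alone, 19 of 37 genes were higher and 8 lower in the dorsal midbrain, where 32.3% and 28.2% of all genes were. The ventral midbrain had 11 higher and 5 lower (15.7% and 13.8% of all genes), and the alar plate 6 and 7 (5.27% and 8.35%). In the ventral hindbrain 5 were higher and 13 lower (19.4% and 20.2%). The ventral forebrain had 0 higher and 11 lower by limma (5.72% and 8.17%). Median log2 changes over the 37 genes were 0.25 in the dorsal midbrain, 0.03 in the ventral midbrain, -0.04 in the alar plate, -0.14 in the ventral forebrain and -0.15 in the ventral hindbrain, and over all genes they lay between -0.02 and 0.03.

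At E14.5 ventral and dorsal midbrain were compared directly, within 1 batch prefix. Of 37 genes 2 were called higher in the ventral midbrain, where 7.27% of all 14013 genes were, and 4 lower, where 4.27% were. Tgfb2 was higher in the ventral midbrain, at 4.81, 7.50 and 5.34 RPKM against 0.759, 0.518 and 1.22 (1.91 ± 0.26, adjusted p = 0.00012). Grem1 was higher too, at 3.67, 2.31 and 3.10 against 1.20, 0.616 and 0.421 (1.22 ± 0.30, 0.005), on 5 to 19 reads per ventral and 2 to 4 per dorsal library.

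Id1, Id2, Fst and Bmpr1b were lower in the ventral midbrain at E14.5. Id1 was 5.20, 6.22 and 2.90 RPKM against 16.2, 17.3 and 22.0 (-1.79 ± 0.25, adjusted p = 0.00013). Id2 was 26.2, 15.2 and 16.6 against 52.6, 45.0 and 66.5 (-1.47 ± 0.28, 0.00099). Fst was 1.93, 0.660 and 1.97 against 4.29, 4.69 and 7.82 (-1.40 ± 0.34, 0.0054). Bmpr1b was 0.680, 0.678 and 0.607 against 2.56, 2.47 and 3.71 (-1.23 ± 0.32, 0.0082). The ventral libraries held 2.97, 1.24 and 1.67 M reads, so the low Fst, Bmpr1b and Id1 values there rest on few reads. Id3 overlapped at this stage, with 33.9, 47.3 and 38.7 in the ventral and 30.3, 47.5 and 86.6 in the dorsal midbrain (-0.33 ± 0.33, 0.45). Dorsal libraries had mesenchymal marker sums of 7.97, 172 and 84.9 and ventral ones 9.06 to 12.2; their part in these differences was not tested.

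Between E12.5 and E14.5, averaged over the regions, 0 of 37 genes were called by limma, where 0.394% of 14227 genes were called higher and 0.499% lower. Of the 37, 21 had an unadjusted p below 0.05, and voom called 1 (Gdf10), with no share of all genes given for either count. At an adjusted p below 0.05 alone 7 were higher and 10 lower at E14.5, where 23.7% and 24.3% of all genes were. Id3 (-0.71 ± 0.17, adjusted p = 0.0013), Acvr2b (-0.57 ± 0.13, 0.0011) and Gdf11 (-0.45 ± 0.11, 0.0018) were lower, and Bmper (0.51 ± 0.11, 0.00052), Id2 (0.52 ± 0.11, 0.00046), Id4 (0.43 ± 0.10, 0.0015) and Acvr2a (0.40 ± 0.08, 0.00015) were higher. Stage and batch prefix cannot be told apart here. For the difference between the E12.5 to E14.5 changes of ventral and dorsal midbrain limma called 0 of 37 (0.0492% of all genes in each direction; 3 members at an unadjusted p below 0.05; voom called 0).

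E11.5 was not tested for stage. Levels of Tgfbr1 were 56.5 to 92.4 RPKM at E11.5 and 25.8 to 57.0 afterwards, and Smad3, Bmpr1a and Id2 also had their highest group means at E11.5 (30.2, 35.7 and 107). Depth, batch prefix and the poor match of 8 libraries to their own region differ with that stage.

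Other genes of the pathway were taken from a list of 79, of which 77 were found and 50 tested in the region comparisons. In the ventral midbrain 4 were higher and 0 lower by limma, where 2.27% and 0.572% of all genes were: the BMP targets Msx1 (2.0 ± 0.17) and Msx2 (1.19 ± 0.07), Hey1 (1.36 ± 0.12) and Ltbp1, which binds latent TGF-beta (1.20 ± 0.15). Msx1 was 13.6, 13.3 and 11.4 RPKM there at E12.5 and 0.194, 0.219 and 0.166 in the ventral hindbrain, where it was the 1 gene of 50 called, lower (-2.09 ± 0.17; 1.06% of all genes). In the dorsal midbrain Chrdl1, a chordin-like BMP antagonist (1.72 ± 0.18), the roof plate ligand Gdf7 (1.61 ± 0.10) and Msx1 (1.32 ± 0.17) were higher and Vwc2l was lower (-1.05 ± 0.12), where 3.1% and 3.15% of all genes were. The alar plate had Msx1 lower (-1.02 ± 0.17; 0.579% of all genes) and the ventral forebrain Nbl1, a BMP antagonist, lower (-1.73 ± 0.24; 0.543%).

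At E14.5, 4 of 49 such genes were higher in the ventral than in the dorsal midbrain and 2 lower, near the shares of all genes (7.27% and 4.27%). Vwc2l (2.41 ± 0.24), Crim1 (1.68 ± 0.19) and Ltbp1 (1.11 ± 0.22) were among the higher. Chrdl1 was lower, at 0.489, 0.351 and 0.436 RPKM in the ventral and 6.85, 6.08 and 8.80 in the dorsal midbrain (-2.52 ± 0.33, adjusted p = 8.3e-05). Msx2 was the 1 pathway gene whose change from E12.5 to E14.5 differed between them: it was 2.24, 2.04 and 1.97 RPKM in the ventral midbrain at E12.5 and 0, 0.355 and 0.265 at E14.5, and stayed at 0.162 to 0.376 in the dorsal midbrain at these stages (difference of changes -1.26 ± 0.22, adjusted p = 0.013). The ventral midbrain libraries of E14.5 held 2.97, 1.24 and 1.67 M reads, so their Msx2 values, and this difference, rest on very few reads.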

How the data were processed

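Tissue RNA (RNeasy) was sequenced from Illumina TruSeq libraries, per the labels' protocols, and reads were mapped with Bowtie to mm10, per the submitters' processing notes; for the counter, annotation and strand setting the sources used here give nothing. The deposited values are RPKM per gene made by the authors. RPKM times length gave whole reads for 100.0% of values within 0.001 reads, and these recovered reads served for depth and for 1 alternative test. Genes were kept if any group of a fit averaged 1 RPKM or more, and tested with limma 3.58.1 (R 4.3.3) on log2(RPKM + 1), with trend and Benjamini-Hochberg adjustment; fits of E12.5 and E13.5, of E14.5, and of E12.5 with E14.5 had 30, 15 and 30 libraries. The fit was tested on simulated data. A gene was called at adjusted p below 0.05 and an absolute log2 change of at least 1. Members called in any comparison were given by library, and of the other pathway genes up to 4 called per comparison were named by adjusted p. Inhbb, Acvr1 and the other uncalled genes given by library were chosen after their values were seen. The members and lists were chosen with earlier results of these data known. Gene positions are from GENCODE vM21 and promoters from RefSeq (GRCm38.p6). Alternatives were another pseudocount (0.1), voom, median-of-ratios scaling, no filter, all 60 libraries in 1 fit, no limit of change, a replicate block, single stages and leaving out libraries.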

Additional observations from a re-analysis of the deposited data

How the results depend on the processing

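Counts of called genes among the 37 are given in the order ventral midbrain, dorsal midbrain, alar plate, ventral forebrain, ventral hindbrain, where the values above were 5, 3, 0, 0 and 2. They were 10, 9, 3, 2 and 4 with a pseudocount of 0.1, and 10, 10, 3, 1 and 6 with voom on recovered reads. Without a limit of change they were 16, 27, 13, 11 and 18, where 29.5, 60.6, 13.6, 13.9 and 39.6% of all genes passed. For the other settings no share of all genes is given here. Those counts show how calls move with the setting and are no result about the members. The counts by setting continue in the same order. E12.5 alone gave 6, 3, 2, 1 and 2, E13.5 alone 5, 6, 1, 0 and 3, and all 4 stages averaged 1, 2, 0, 0 and 2. Chosen after seeing the data, E14.5 alone gave 2, 3, 1, 1 and 2, E11.5 alone 0 in each (both across 2 batch prefixes), and leaving out alar plate E12.5 replicate 3 (lowest correlation with its group) and ventral forebrain E12.5 replicate 1 (Foxa2 at 0.143 RPKM) 5, 5, 1, 0 and 2. Leaving out 1 library at a time gave 4 to 5, 2 to 5, 0 to 1, 0 to 1 and 2 to 2; the dorsal midbrain 5 came without dorsal midbrain E12.5 replicate 3, and the alar plate 1 without alar plate E12.5 replicate 1 or 3. For ventral against dorsal midbrain at E14.5 (6) the count was 11 with a pseudocount of 0.1, 9 with voom and 6 to 9 leaving out 1 library. Without a limit of change it was 20, where 39.3% of all genes passed. For E14.5 against E12.5 (0) the count was 1 with voom, 17 without a limit of change (48.0% of all genes) and 0 to 0 leaving out 1 library. For the difference of changes it was 0 throughout. Single-gene calls kept direction and threshold in 538 of 568 alternatives, lost the threshold in 27 and reversed in 3, all at E11.5 alone: Bmp6 in the ventral midbrain (-0.0612, adjusted p = 0.97) and Tgfb2 in the ventral midbrain (-0.59, 0.52) and ventral hindbrain (-0.17, 0.83). The cause was not tested. Leaving out libraries that match another region could not be run where it removes all alar plate E12.5 libraries. No label says what a replicate number shares across regions, and the numbers were not taken as pairs: same-numbered samples had mean correlations of -0.03, 0.14, 0.17 and 0.09 at the 4 stages in order, differently numbered ones 0.01, -0.07, -0.09 and -0.05, and the lowest same-numbered pair was at -0.11 or lower at each stage; with a replicate block the E14.5 midbrain count was 7 and the others were unchanged. Low depth at E14.5 limits genes such as Grem1, Fst, Bmpr1b and Msx2.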
